A study of Mus musculus with 64 samples.

Results

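The CC chemokine genes of mouse chromosome 11 were followed through 6 chromatin features in B cells before and after stimulation. The 10 genes were Ccl2, Ccl7, Ccl8, Ccl11 and Ccl12, called here the Ccl2 to Ccl12 group, Ccl3, Ccl4 and Ccl5, called the Ccl3 to Ccl5 group, and Ccl6 and Ccl9, which lie among the latter. They are 10 of the 34328 protein-coding and long non-coding RNA genes for which coverage was computed. The genes and the contrast between the groups were chosen because the groups differed in H3K27me3, H2AK119Ub and H3K27ac in these same libraries, so the values below are a description and carry no test. Each value is the percent of a gene's region, the gene with 2 kb on each side, that lies under the authors' peaks in 1 library.

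All libraries came from splenic CD23+ B cells of female F1 mice, labelled F1 mus x cast, from C57BL/6 mothers with a heterozygous Xist deletion and Cast fathers. Cells were unstimulated (0 h) or were given 1 µM CpG, DNA that is sensed by TLR9, over 12 or 24 h. CUT&RUN, an assay that releases and sequences the DNA around an antibody bound to chromatin, was done for H3K27me3 with 3, 3 and 4 libraries at 0, 12 and 24 h, for H2AK119Ub with 4, 3 and 5, and for H3K9me3 with 4 at each time. H3K27ac, Suz12 and Ring1B each had 3 libraries at each time. The labels call the replicates biological. They do not say which daughters inherited the Xist deletion, nor whether cells of several animals were pooled. The lists hold peaks of reads assigned to the Cast, that is the paternal, copy of each autosome, and the C57BL/6 copy was not analysed here.

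CC chemokines are small secreted proteins that draw leukocytes along a gradient by binding receptors on their surface, and B cells stimulated through TLR9 are known to secrete some of them. H3K27me3 is laid down by a Polycomb complex that holds Suz12 and H2AK119Ub by one that holds Ring1B. Both marks are found at genes that are kept silent, whereas H3K27ac is found at active promoters and enhancers, and H3K9me3 marks heterochromatin.

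The promoters of the genes on which the comparison turns are shown for their letters, since Polycomb complexes are known to settle at promoters rich in CG dinucleotides. RefSeq sequences of GRCm38.p6, the assembly called mm10, were matched by symbol for 5 of the 10 genes, namely Ccl12, Ccl8, Ccl3, Ccl9 and Ccl6. None was matched for Ccl2, Ccl7, Ccl11, Ccl4 and Ccl5. The 150 bases before the start of transcription are printed 5′ to 3′ on the strand of the gene, with CG dinucleotides and TATAAA matches in capitals. Ccl12 and Ccl8 stand for the genes that lay wholly under H3K27me3 at 24 h, Ccl3 for the gene under H3K27ac, and Ccl9 for the gene under H2AK119Ub and H3K27me3.
Ccl12, plus strand, chr11:82101695-82101844: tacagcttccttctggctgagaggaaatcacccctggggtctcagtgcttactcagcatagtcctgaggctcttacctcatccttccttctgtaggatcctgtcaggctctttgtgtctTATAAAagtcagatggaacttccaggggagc
Ccl8, plus strand, chr11:82115035-82115184: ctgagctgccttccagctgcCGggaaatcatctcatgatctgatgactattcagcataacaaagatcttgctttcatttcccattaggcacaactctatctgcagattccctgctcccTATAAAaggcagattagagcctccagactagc
Ccl3, minus strand, chr11:83649379-83649528: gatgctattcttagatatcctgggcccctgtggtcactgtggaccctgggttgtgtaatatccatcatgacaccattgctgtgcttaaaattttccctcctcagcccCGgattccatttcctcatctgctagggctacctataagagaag
Ccl9, minus strand, chr11:83578637-83578786: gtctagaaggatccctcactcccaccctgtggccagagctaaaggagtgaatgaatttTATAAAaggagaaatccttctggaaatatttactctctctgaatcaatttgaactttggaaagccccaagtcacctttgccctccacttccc
Over 250 bases before the start, Ccl12 and Ccl8 held 1 CG dinucleotide each and Ccl3, Ccl9 and Ccl6 held 2 each. The median over 27025 promoters was 6, and 19.4% of promoters held 1 or fewer and 29.6% held 2 or fewer. Of the 2 contrasted groups only Ccl12 and Ccl8 in the first and Ccl3 in the second could be read. The CG content of the groups was therefore not compared. TATAAA, searched on both strands, began 31 bases before the start of Ccl12 and 32 bases before that of Ccl8, and was matched at Ccl9 but not at Ccl3 or Ccl6. It was found in 13.0% of all promoters. The NF-kB consensus was matched at Ccl9 alone of the 5, and in 7.01% of promoters. TGANTCA, a motif of AP-1 factors, was likewise matched at Ccl9 alone, once, and in 6.87% of promoters. A match is a description of the letters only.

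The genes stand in 2 stretches of chromosome 11 that lie 1409 kb apart. In ascending order the first holds Ccl2 (chr11:82035577-82037452), Ccl7 (chr11:82045712-82047525), Ccl11 (chr11:82057832-82062955), Ccl12 (chr11:82101845-82103399) and Ccl8 (chr11:82115185-82116799). The second holds Ccl5 (chr11:83525778-83530518), Ccl9 (chr11:83572917-83578636), Ccl6 (chr11:83587886-83593087), Ccl3 (chr11:83647843-83649378) and Ccl4 (chr11:83648624-83664683). The model of Ccl4 in the annotation is long and overlaps Ccl3 by 755 bases, and 85.9% of the Ccl3 region lies inside the Ccl4 region, so these 2 genes are not independent values.

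The lists of the histone marks grew with time. H3K27me3 lists held 2771 to 7561 peaks at 0 h and 20452 to 26764 at 24 h, H2AK119Ub lists 2098 to 4346 and 10963 to 24632, and H3K27ac lists 1450 to 5277 and 9554 to 15896. The H3K27me3 lists also differ between times in the scale of the authors' signal. In the 4 lists at 24 h every highest signal is a whole number, with a lowest value of 6, whereas none of the 3 lists at 0 h or the 3 at 12 h is of this kind, and their lowest values run from 2.93 to 6.90. The H3K27ac lists hold such fractional signals at all times, and those of the other 4 antibodies whole numbers at all times. The comparison of H3K27me3 between 24 h and the earlier times is therefore one between lists of unlike scale, and scale and time cannot be told apart. Read depth is unknown, and whether the cells, the depth, that scale or the threshold of the caller enlarged the lists cannot be told apart. H3K27ac peaks lay in every library on 7 of 11 B cell marker genes at 0 h, on all 11 at 12 h and on 10 at 24 h. No H3K27ac peak touched any of 6 neutrophil markers at any time. Of 9 monocyte and macrophage markers, 1, 2 and 1 had an H3K27ac peak in every library at 0, 12 and 24 h, and Lyz2, Cd14 and Fcgr1 were among those with none in any library. Of 9 T cell markers 0, 2 and 2 did, namely Cd3d and Lck, with Cd3e, Cd4, Cd8a, Cd2 and Bcl11b at 0. Of 5 NK cell markers 0, 1 and 1 did, namely Klrb1c, with Ncr1, Gzmb, Prf1 and Eomes at 0. The mean H3K27ac coverage over a list ran at 0 and 24 h from 1.25% to 1.89% and 0.626% to 9.81% for monocyte markers, from 0% to 8.04% and 6.28% to 7.49% for T cell markers, and from 0% to 0% and 3.48% to 16.1% for NK cell markers. The part of other cells in the values below was not tested.

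H3K27me3 appeared over the Ccl2 to Ccl12 group between 0 and 24 h. Its genes encode attractants of monocytes (Ccl2, Ccl7 and Ccl12, ligands of the receptor Ccr2) and of eosinophils (Ccl11, a ligand of Ccr3), with Ccl8, a ligand of Ccr8 in the mouse. At 0 h the covered percent was 0 for all 10 genes in all 3 libraries. At 24 h Ccl11, Ccl12 and Ccl8 were covered over 100% of their regions in each of the 4 libraries. Ccl7 reached 78.8%, 30.9%, 50.2% and 82.1% in replicates 1 to 4. Ccl2, at the end of the row, was the least even, with 19.8%, 0%, 47.8% and 100%. For all but Ccl2 every 24 h value lay above every 0 h value.

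At 12 h the mark lay on 3 of these 5 genes, on a different gene in each library. Ccl8 was wholly covered in replicate 1, Ccl2 was covered over 46.9% in replicate 2 and Ccl11 over 44.9% in replicate 3. Ccl7 and Ccl12 were at 0% in all 3. The mean over the 5 genes went from 0% at 0 h to 12.8% ± 6.25 (SD, n = 3) at 12 h and 80.5% ± 12.4 (SD, n = 4) at 24 h. The 24 h libraries gave group means of 79.7%, 66.2%, 79.6% and 96.4%, the last from the library with the most covered autosomal sequence, 310.5 Mb against 201.2 to 223.1 Mb in the others. The part of that coverage in the value was not tested.

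**Figure D1:**
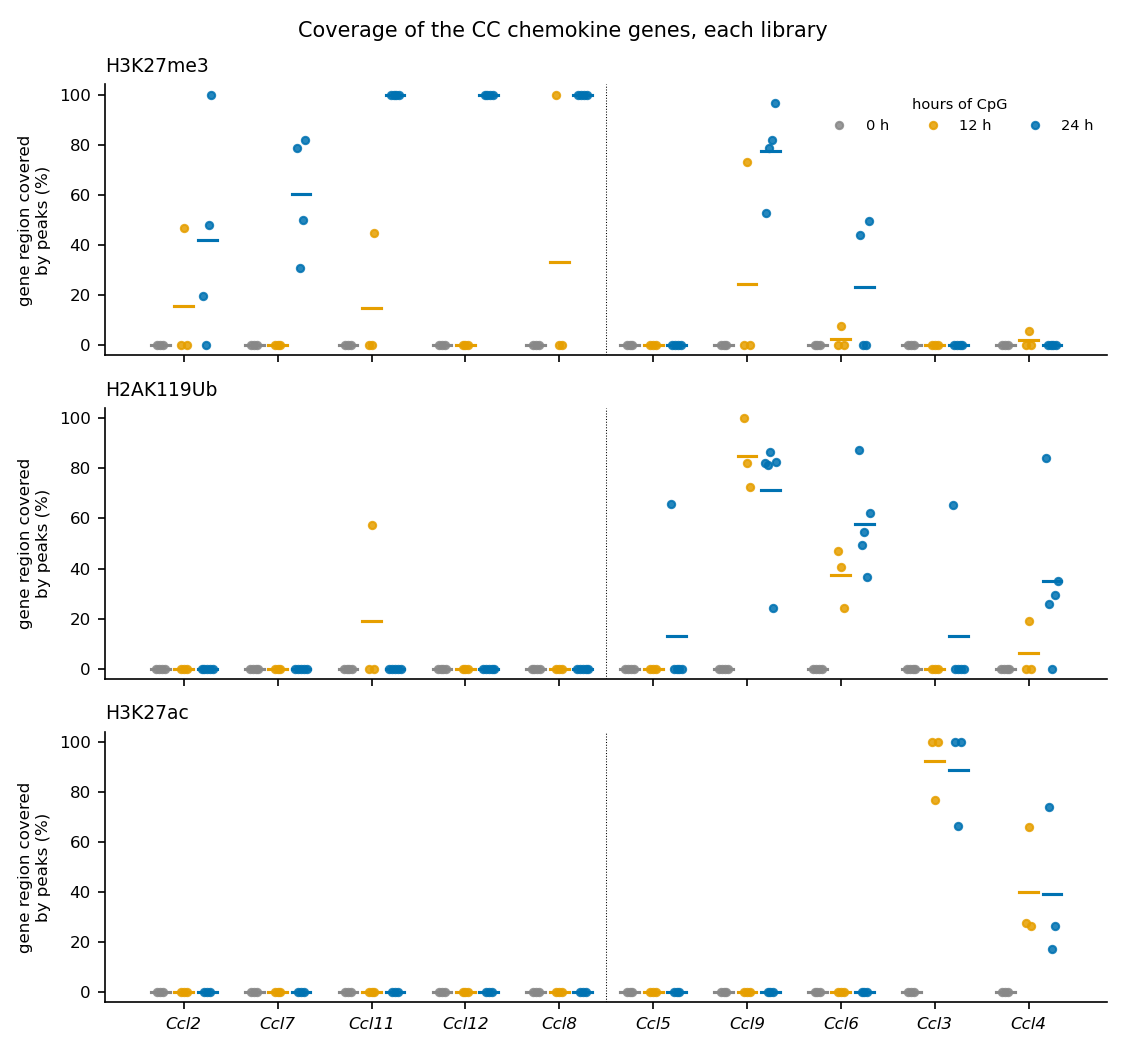
Percent of each gene region covered by peaks of H3K27me3, H2AK119Ub and H3K27ac (vertical axes), for the 10 genes in chromosomal order (horizontal axis), with 1 point per library, bars at the mean, and a dotted line between the stretches. All 0 h values are 0, the 24 h values of Ccl11, Ccl12 and Ccl8 are 100% for H3K27me3, and Ccl3 and Ccl4 alone hold H3K27ac.

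The Ccl3 to Ccl5 group stayed without the mark. Ccl3 and Ccl4 encode attractants of T cells and macrophages, and Ccl5 encodes an attractant of T cells. Of the 3 genes only Ccl4 met an H3K27me3 peak, over 5.88% of its region in 12 h replicate 2, and all 3 were at 0% in the 4 libraries at 24 h. Ccl9 and Ccl6, which encode ligands of Ccr1, did not follow these neighbours. Ccl9 was covered over 52.6%, 78.7%, 81.7% and 96.8% at 24 h, so that every library at 24 h lay above every library at 0 h. Ccl6 was covered over 43.8%, 0%, 0% and 49.7%, and overlapped its 0 h values. Ccl1, a CC chemokine gene beyond Ccl8 that is not among the 10, had no peak of any antibody in any of the 61 libraries, as did 12.0% of all genes.

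These gains must be read against the growth of the whole lists. Of 11914 genes tested by limma's moderated F-test, 56.5% were called higher at 24 h than at 0 h at an adjusted p of 0.05, that is 6730 genes, and 1 was called lower. Scaled by autosomal coverage, 1903 were called higher and 447 lower. The 0 h lists cover less sequence and are multiplied up the more, so scaled values can leave the percent range. A lower scaled value is therefore not read as a loss. A gene was tested when at least 3 libraries had a peak in its region, which 7 of the 10 members met and Ccl3, Ccl4 and Ccl5 did not. Ccl7, Ccl11, Ccl12, Ccl8 and Ccl9 were among the genes called, and nothing is read from that count because the genes were chosen on these values. The median difference between 24 and 0 h over all tested genes was 28.9 percentage points. Of all 34328 genes, 9.59% went from 0% in every 0 h library to some coverage in every 24 h library, among them the same 5 members. From 0% in every 0 h library to 100% in every 24 h library went 45 genes, or 0.131%, among them Ccl11, Ccl12 and Ccl8.

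The H3K27me3 peaks over the members were broad and of low to middle height within their lists. The 18 peaks that touched a member at 24 h had a median length of 14259 bases. Ranked by their highest signal they stood between percentile 1.99 and 73.2 of their lists, with a median of 44.6. When each list was limited to its 2771 highest peaks, the length of the shortest, no member kept an H3K27me3 peak at any time and the mean of the Ccl2 to Ccl12 group at 24 h was 0%. Divided by the autosomal coverage of the library, the 24 h group mean was 48.6% ± 3.77 (SD, n = 4) in place of 80.5%.

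Peaks joined neighbouring genes. In each of the 4 libraries at 24 h a single peak held both Ccl12 and Ccl8, and its length ran from 25006 to 39414 bases. The bases common to all 4 were chr11:82097970-82122975, which holds the promoter windows of Ccl12 and Ccl8 printed above. In replicates 1, 3 and 4 a single peak touched both Ccl2 and Ccl7. Another block common to all 4 libraries, chr11:82050671-82072986, held Ccl11.

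The DNA between the genes was covered as well. From Ccl2 to Ccl8 as a whole, H3K27me3 lay over 0% at 0 h, 12.6% ± 5.68 (SD, n = 3) at 12 h and 77.9% ± 5.85 (SD, n = 4) at 24 h. Between Ccl12 and Ccl8 the coverage at 24 h was 100% in all 4 libraries, and between Ccl2 and Ccl7 it was 99.2% ± 1.67 (SD, n = 4). The wider gap between Ccl11 and Ccl12 was the least covered of the 4 gaps at 65.2% ± 6.73 (SD, n = 4). None of these gaps held a peak at 0 h. Beyond the group, between Ccl8 and Ccl1, peaks stood at 0 h in 2 of 3 libraries, and coverage was 15.7% ± 14.3 (SD, n = 3) against 61.2% ± 5.91 (SD, n = 4) at 24 h.

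**Figure D2:**
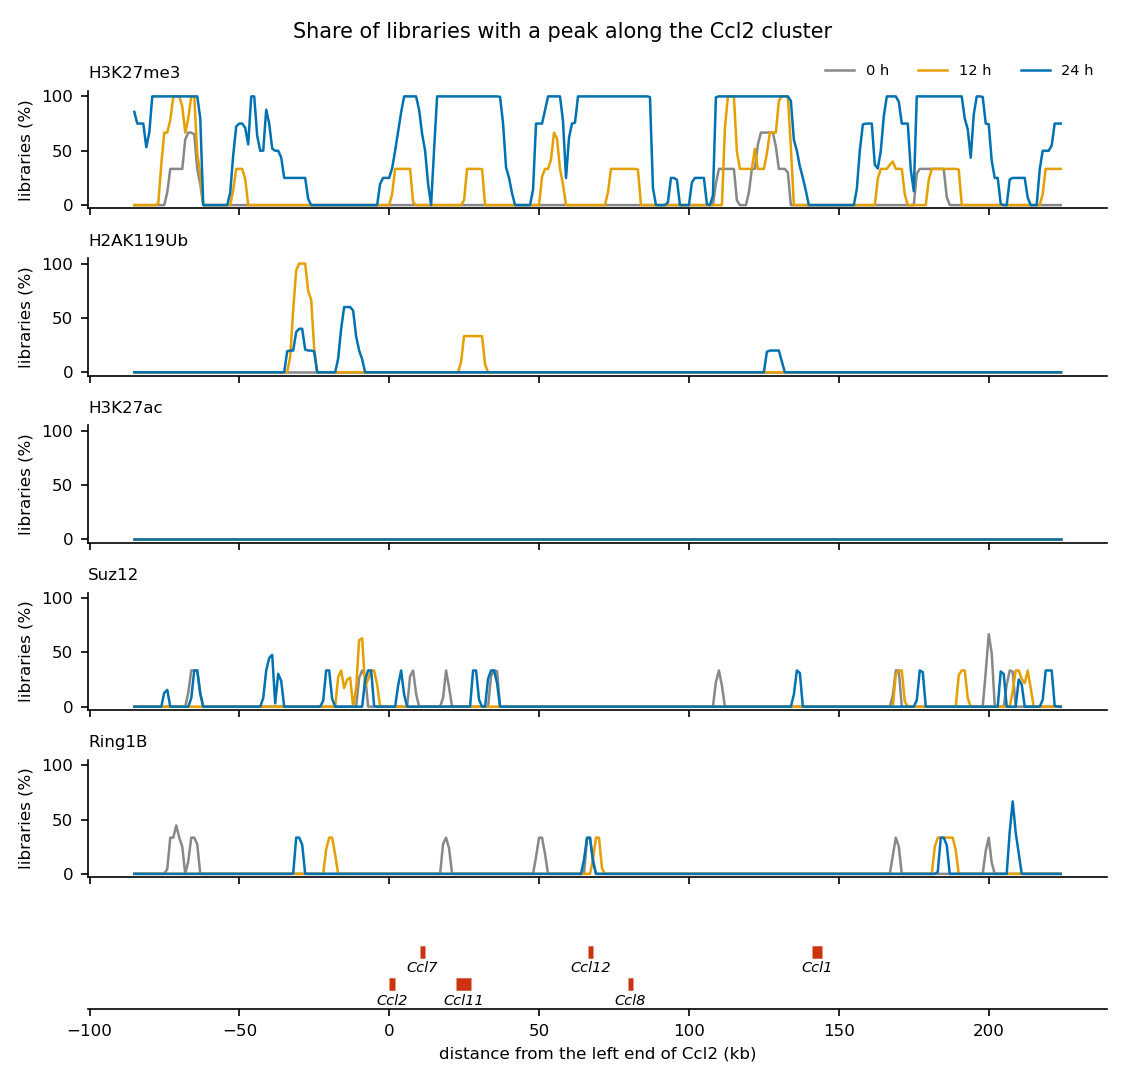
Share of libraries with a peak (vertical axes, %) in bins of 1 kb along the stretch that holds the Ccl2 to Ccl12 group, against the distance in kb from the left end of Ccl2, for 5 antibodies and 3 times, with the genes drawn below to scale. H3K27me3 at 24 h reaches all 4 libraries over Ccl11, Ccl12 and Ccl8, while no H3K27ac peak appears at any time.

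H2AK119Ub, the other Polycomb mark, did not accompany H3K27me3 at the Ccl2 to Ccl12 group. No gene of the group held an H2AK119Ub peak at 0 h or in any of the 5 libraries at 24 h, and from Ccl2 to Ccl8 as a whole the 24 h coverage was 0%. The single exception was Ccl11 in 12 h replicate 2, at 57.5%. H3K27me3 without H2AK119Ub was not particular to these genes. Of the 3291 genes that gained H3K27me3 in the sense of 0% in every 0 h library and some in every 24 h library, 35.2% held no H2AK119Ub in any 24 h library, among them 4 members. These were Ccl7, Ccl11, Ccl12 and Ccl8.

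Ccl9 and Ccl6 held H2AK119Ub from 12 h on. Ccl9 was at 0% in all 4 libraries at 0 h, at 100%, 82.0% and 72.5% at 12 h, and at 82.2%, 81.2%, 86.5%, 24.1% and 82.4% at 24 h. Ccl6 was at 0% at 0 h, at 47.0%, 40.5% and 24.3% at 12 h, and at 87.1%, 49.3%, 54.4%, 36.8% and 62.0% at 24 h. For both genes every stimulated library lay above every unstimulated one. The H3K27me3 and H2AK119Ub values of Ccl9 were thus both high at 24 h, but at 12 h H2AK119Ub was on the gene in 3 of 3 libraries and H3K27me3 in 1 of 3. The bases under H2AK119Ub at Ccl9 in all 8 stimulated libraries were chr11:83576571-83578806, and they hold the promoter window of Ccl9 printed above.

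Ccl3, Ccl4 and Ccl5 met the mark less regularly. Ccl4 was at 84.3%, 25.9%, 0%, 29.6% and 35.1% in the 5 libraries at 24 h and at 18.9% in 1 library at 12 h. Ccl5 and Ccl3 were covered in 24 h replicate 1 alone, over 65.6% and 65.4%, and at 0% in the other 4. That library had the most covered autosomal sequence of the 24 h H2AK119Ub libraries, 212.8 Mb, and replicate 4, where Ccl9 was lowest, had the least, 59.1 Mb. The part of that coverage in these values was not tested. The group mean of Ccl3, Ccl4 and Ccl5 at 24 h was 20.4% ± 29.1 (SD, n = 5), and 7.56% without replicate 1.

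Among the 13845 genes tested for H2AK119Ub by limma's moderated F-test, 31.0% were called higher at 24 h than at 0 h, that is 4297 genes, and 41 were called lower. Scaled by autosomal coverage, 3983 were called higher and 1045 lower, and with equal list length 337 higher and 297 lower. Ccl9, Ccl6 and Ccl4 had peaks in enough libraries to enter the fit, and Ccl9 and Ccl6 were among the genes called. Nothing is read from this, since the genes were chosen on these values. Of all genes, 5.76% went from 0% in every 0 h library to some coverage in all 8 stimulated libraries, Ccl9 and Ccl6 among them. When lists were limited to their 2098 highest peaks, none of the 10 genes kept an H2AK119Ub peak.

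H3K27ac lay on Ccl3 and Ccl4 alone of the 10 genes. At 0 h no member held a peak in any of the 3 libraries. At 12 h Ccl3 was covered over 100%, 76.8% and 100% of its region, and at 24 h over 100%, 66.3% and 100%. Ccl4 followed with 27.7%, 66.1% and 26.5% at 12 h and 74.0%, 17.2% and 26.5% at 24 h. The other 8 genes, Ccl5 among them, were at 0% in all 9 libraries. Every stimulated value of Ccl3 and Ccl4 lay above every unstimulated value.

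Much of the coverage of Ccl4 was that of the shared bases. Outside the Ccl3 region, Ccl4 was covered over 24.3% ± 34.4 (SD, n = 3) at 12 h and 23.2% ± 37.1 (SD, n = 3) at 24 h, and 1 library at each time carried nearly all of it, with 63.9% and 65.9%. The bases under H3K27ac in all 6 stimulated libraries were chr11:83646394-83650064, which hold the whole Ccl3 gene and its promoter window printed above. Another 2 such blocks lay outside the member regions, at chr11:83549110-83552124 between Ccl5 and Ccl9 and at chr11:83639479-83642821 between Ccl6 and Ccl3. In 12 h replicate 2 and 24 h replicates 1 and 3 the latter block lay in the same peak as Ccl3.

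The H3K27ac peaks that touched Ccl3 or Ccl4 stood between percentile 52.9 and 95.6 of their lists at 12 h and between 39.9 and 96.2 at 24 h, with medians of 81.7 and 70.5. When lists were limited to their 1450 highest peaks, Ccl3 kept H3K27ac in 12 h replicates 2 and 3 and in 24 h replicate 1. Among 9342 genes tested for H3K27ac by limma's moderated F-test, 1.45% were called higher at 24 h and 0 lower. Of the 2 members in the fit, Ccl3 and Ccl4, the genes called held Ccl3, from which nothing is read, as above. With equal list length 21 genes were called higher and 70 lower. The count of 136 genes called in any direction moved from 0 to 725 when 1 library at a time was left out, and was 0 without 0 h replicate 2 or 3, 12 h replicate 1 or 24 h replicate 3. By the plainer rule of 0% in every 0 h library and some coverage in all 6 stimulated libraries, 2.86% of all genes qualified, with Ccl3 and Ccl4 among them.

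**Figure D3:**
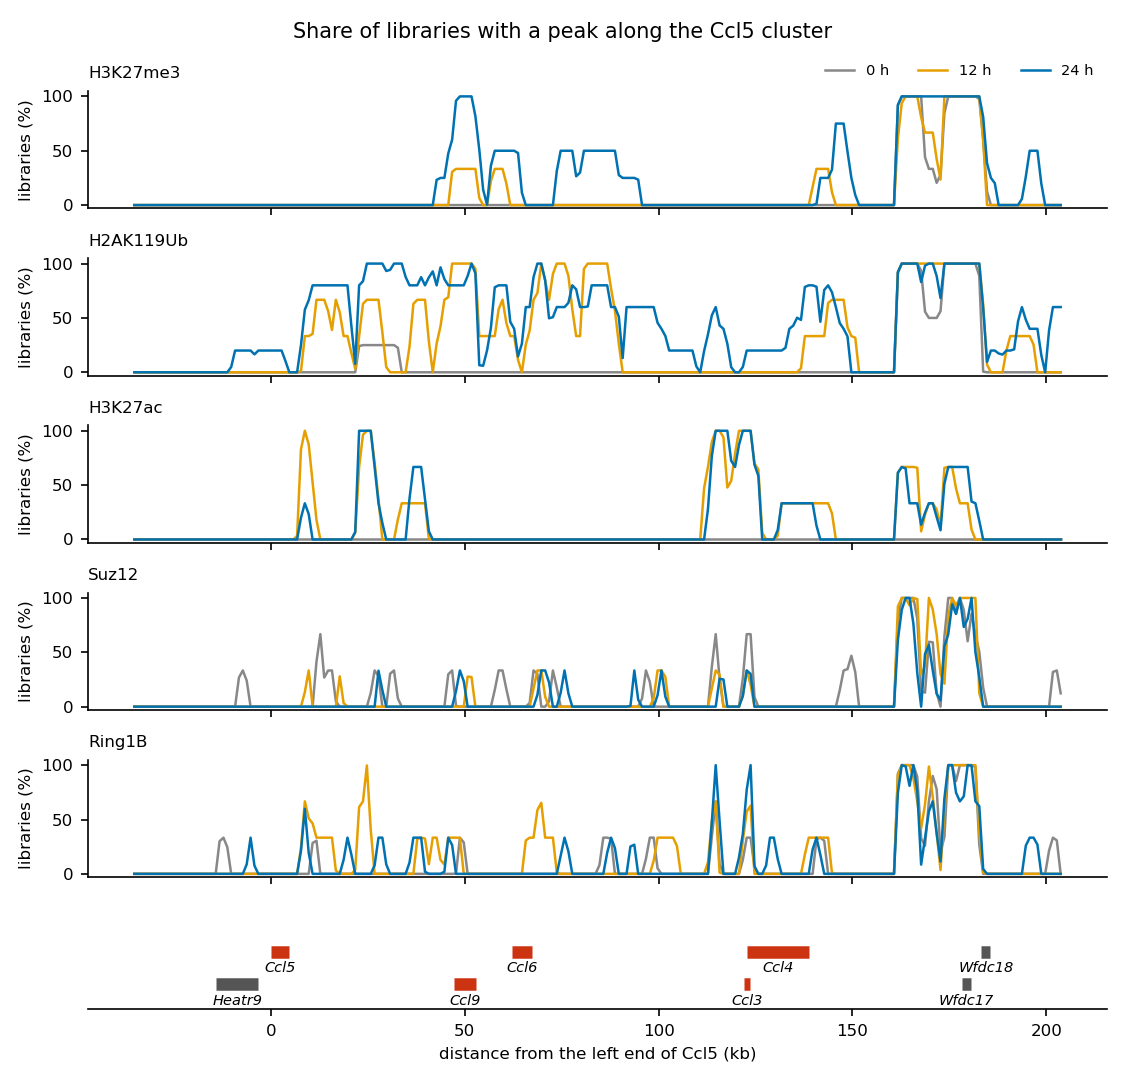
Share of libraries with a peak (vertical axes, %) in bins of 1 kb along the stretch from Ccl5 to Wfdc18, against the distance in kb from the left end of Ccl5, for 5 antibodies and 3 times, with the genes drawn below to scale. H3K27ac stands at Ccl3, at Wfdc17 and at blocks outside the genes at 12 and 24 h, H2AK119Ub lies between Ccl5 and Ccl6, and Wfdc17 is covered by H3K27me3 and H2AK119Ub at all times.

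Suz12 and Ring1B were sparse on the Ccl2 to Ccl12 group and commoner at Ccl3. The lists of these proteins hold a fixed top share of signal blocks, so a longer or shorter list says nothing of occupancy. In 9 libraries of each, Ccl12 had a Ring1B peak in 3, 1 at each time, and no Suz12 peak. Ccl2, Ccl7 and Ccl11 each had 1 Suz12 peak and no Ring1B peak, and Ccl8 had neither, although H3K27me3 covered it wholly at 24 h. The group mean of Suz12 at 24 h was 2.60% ± 4.51 (SD, n = 3).

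At Ccl3, Ring1B covered 46.3%, 0% and 0% at 0 h, 0%, 51.7% and 29.9% at 12 h, and 63.0%, 39.9% and 25.2% at 24 h. The values of the 3 times overlapped. The bases common to the 3 Ring1B libraries at 24 h, chr11:83648679-83650037, lie within the acetylated block and hold the promoter window of Ccl3. A further Ring1B block common to the 3 libraries at 24 h, chr11:83639654-83641076, lies within the acetylated block between Ccl6 and Ccl3. Suz12 met Ccl3 in 4 of 9 libraries, namely 2 at 0 h and 1 at each later time. Ccl9 and Ccl6 met Suz12 in 3 and 4 of 9 libraries and Ring1B in 3 and 2.

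The fit over all genes called little for these proteins. For Suz12, 0 of 18049 genes were called by limma at an adjusted p of 0.05, and 1582 had an unadjusted p under 0.05. For Ring1B, 15 of 17641 genes were called, or 0.0850%, and 1540 had an unadjusted p under 0.05. The members tested, 4 for each protein, were not called. H3K9me3 was at 0% for all 10 genes in all 12 libraries, as it was for 90.9% of all genes. The name of this mark rests on the antibody label, since the titles of these 12 samples spell it H3K29me3.

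**Figure D4:**
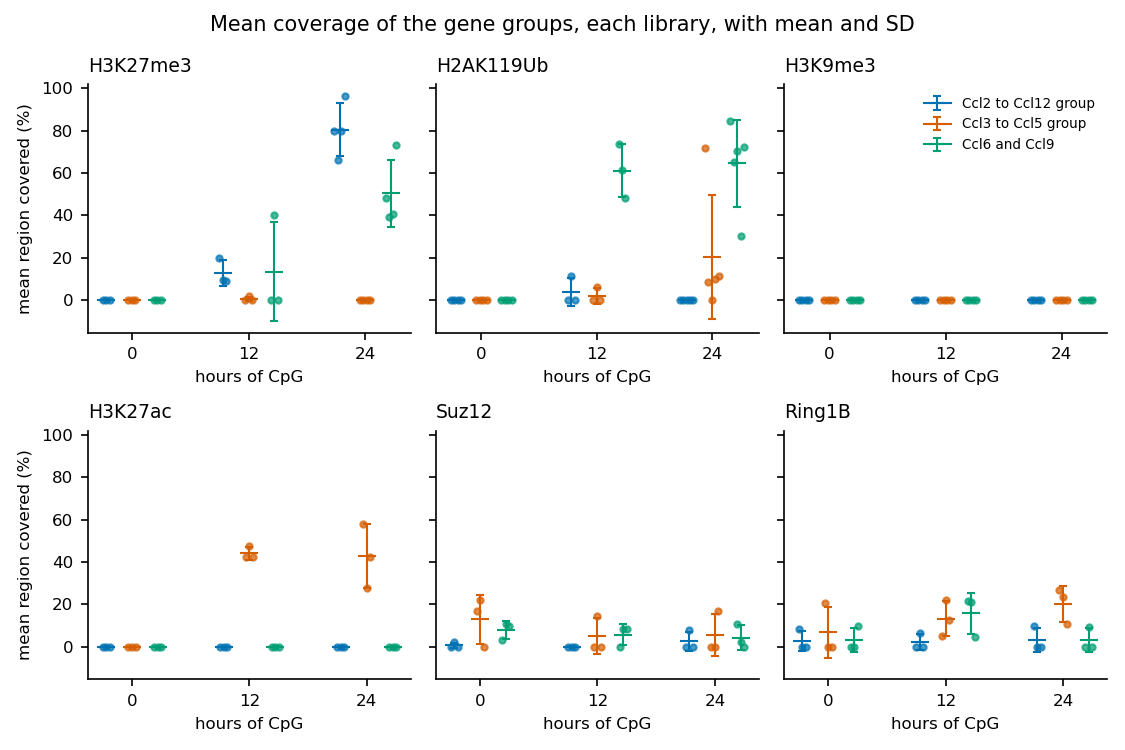
Mean covered percent of the Ccl2 to Ccl12 group, the Ccl3 to Ccl5 group, and Ccl6 with Ccl9 (vertical axes) by hours of CpG (horizontal axes) for the 6 antibodies, with 1 point per library and bars for the mean and SD. At 24 h the Ccl2 to Ccl12 group is at 80.5% for H3K27me3 and 0% for H2AK119Ub and H3K27ac, and the Ccl3 to Ccl5 group is at 42.7% for H3K27ac.

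Set against each other within a library, the Ccl2 to Ccl12 group exceeded the Ccl3 to Ccl5 group in H3K27me3 by 12.1 ± 6.86 percentage points (SD, n = 3) at 12 h and 80.5 ± 12.4 (SD, n = 4) at 24 h. For H3K27ac the difference, the first group minus the second, was -44.1 ± 3.05 (SD, n = 3) at 12 h and -42.7 ± 15.1 (SD, n = 3) at 24 h. For H2AK119Ub it was -20.4 ± 29.1 (SD, n = 5) at 24 h, an SD larger than the mean. For Ring1B it was -4.09 ± 7.09 (SD, n = 3) at 0 h, -11.2 ± 5.25 (SD, n = 3) at 12 h and -17.1 ± 6.44 (SD, n = 3) at 24 h. For Suz12 it was furthest from 0 before stimulation, with -12.2 ± 10.7 (SD, n = 3) at 0 h, -4.91 ± 8.50 (SD, n = 3) at 12 h and -3.03 ± 12.6 (SD, n = 3) at 24 h. In the 4 histone marks both groups were at 0% at 0 h, and in H3K9me3 they were at 0% at 12 and 24 h too.

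The edges of the second stretch differed from each other. Next to Ccl4, Wfdc17, which encodes a protein with a whey acidic protein domain, lay over 100% under H3K27me3 in all 10 libraries and over 100% under H2AK119Ub in all 12, at 0 h as later. Its H3K27me3 peaks stood between percentile 86.0 and 99.9 of their lists, above every H3K27me3 peak on a member, and all were kept in the lists limited to 2771 peaks. H3K27ac was at 0% on Wfdc17 at 0 h, but lay on it in 2 of 3 libraries at 12 h, with a mean of 24.5% ± 37.6 (SD, n = 3), and in 2 of 3 at 24 h, with 54.7% ± 50.7 (SD, n = 3). On the other side Heatr9, the neighbour of Ccl5, had no H3K27me3 or H3K27ac peak in any library. Ccl5 itself met a peak in 1 of 61 libraries, the fewest of the 10 genes. Between Ccl5 and Ccl9 H2AK119Ub covered 7.08% ± 14.1 (SD, n = 4) at 0 h and 80.3% ± 21.9 (SD, n = 5) at 24 h. From Ccl5 to Ccl4 as a whole it covered 1.90% ± 3.80 (SD, n = 4) and 55.2% ± 20.6 (SD, n = 5). The 10 protein-coding neighbours of the Ccl2 to Ccl12 group, 5 on each side, did not share 1 pattern of H3K27me3. Asic2, the nearest on the left, had a peak in every library at 0 h and went from 1.85% ± 1.58 (SD, n = 3) to 24.0% ± 6.97 (SD, n = 4) at 24 h. Myo1d, Tmem132e and Cct6b also held peaks in some library at 0 h, and their means at 24 h were 52.2%, 15.7% and 27.8%. Spaca3, Tmem98 and 1700071K01Rik were at 0% at 0 h, with means of 52.7%, 32.6% and 19.7% at 24 h. Zfp830, Lig3 and Ccl1 were at 0% in every library.

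Genes elsewhere varied over the libraries in like ways, though not always to the same level. Over the 61 libraries of all antibodies, and among 21554 protein-coding genes more than 2 Mb from any member, Vip had the highest Pearson r with the mean of the Ccl2 to Ccl12 group, 0.983. Vip encodes vasoactive intestinal peptide, and its H3K27me3 coverage went from 0% at 0 h to 12.9% ± 11.9 (SD, n = 3) and 92.0% ± 9.61 (SD, n = 4), with no H2AK119Ub or H3K27ac at any time. Abcb5, Fam160a1, Prss55 and Tmem215 followed with r between 0.976 and 0.979. Pearson r takes no account of level, and their H3K27me3 means at 24 h were lower than that of Vip, at 42.2%, 34.5%, 43.2% and 59.6%. For the Ccl3 to Ccl5 group the highest r was that of Odc1 (0.936), which encodes ornithine decarboxylase. Its H3K27ac coverage was 0% at 0 h, 30.7% ± 7.16 (SD, n = 3) at 12 h and 43.7% ± 21.7 (SD, n = 3) at 24 h. Ly96, whose product MD-2 is a partner of the receptor TLR4, followed with 0.910, then Eaf1 with 0.896 and Ascc1 and Bbs12 with 0.885 each. These correlations are descriptions, because the libraries fall into groups by antibody and time and are not independent values, and read depth is unknown.

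The other chemokine genes were read, as family lists, from the limma fit over all genes, in which 56.5% of tested genes were called higher in H3K27me3 at 24 h. Of 16 CXC, XC and CX3C chemokine genes 13 were tested for H3K27me3 and 8 were called, all higher at 24 h, a share near that of all genes. Scaled by autosomal coverage, Pf4 and Ppbp alone of the 8 passed. The scaled difference of Cxcl12 was -101 points, which is not read as a loss, since scaled values are not held to the percent range. Cxcl13, Cxcl12, Cxcl16 and Cxcl3 then had adjusted p = 0.115, 0.115, 0.28 and 0.143 by limma. With equal list length Cxcl12 passed (limma adjusted p = 0.00872) and Cxcl5 did not (0.2). The others of the 8, Pf4, Ppbp and Cxcl1 among them, then kept peaks in too few libraries to be tested. The median difference of the list was 66.7 points, against 28.9 over all tested genes. Of 11 other CC chemokine genes 3 were tested and 2 called higher, with medians of 30.4 and 28.9. Neither list was compared with other genes by a test.

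A row of CXC chemokine genes on chromosome 5 gained H3K27me3. Pf4, which encodes a platelet chemokine, rose from 0% to 96.2% ± 5.45 (SD, n = 3) at 12 h and 99.4% ± 1.10 (SD, n = 4) at 24 h (limma adjusted p = 9.92e-05). Ppbp, another platelet chemokine gene beside it, rose from 0% to 98.2% ± 3.65 (SD, n = 4) at 24 h (limma adjusted p = 0.00136). Cxcl5 and Cxcl1 encode attractants of neutrophils. Cxcl5 rose from 16.7% to 88.6% ± 22.7 (SD, n = 4) and Cxcl1 from 0% to 100% in all 4 libraries (limma adjusted p = 0.00424 and 0.00497). Scaled by autosomal coverage the difference of Cxcl5 remained positive. Those of Pf4, Ppbp and Cxcl1 could not turn negative, since these genes were at 0% at 0 h. Cxcl5 and Cxcl1 no longer passed when scaled (limma adjusted p = 0.181 and 0.111). Of the other CC genes, Ccl28, whose product attracts cells to mucosal tissue, rose from 46.1% to 80.9% in H3K27me3 (limma adjusted p = 0.0281). Scaled by autosomal coverage its difference was -105 points (limma adjusted p = 0.043). Scaled values are not capped at 100%, so this sign is not read as a loss. Ccl22, which encodes a ligand of Ccr4, rose from 0% to 30.4% ± 24.0 (SD, n = 4) with a limma adjusted p of 0.0445, and 0.106 when scaled. Its peaks were all at 24 h, so it entered the fit through that time alone. With equal list length the difference of Ccl28 was negative (limma adjusted p = 0.483), and Ccl22 kept peaks in too few libraries to be tested.

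H2AK119Ub rose on other chemokine genes. Of 7 CXC, XC and CX3C genes tested 3 were called, all higher at 24 h, against a background of 31.0%. Cx3cl1, which encodes fractalkine, rose from 0% to 90.0% ± 9.24 (SD, n = 5) at 24 h (limma adjusted p = 2.46e-05). Cxcl12 rose to 66.7% ± 13.5 (SD, n = 5) and Cxcl10, an interferon-induced attractant of T cells, from 2.70% to 79.0% ± 28.0 (SD, n = 5), with limma adjusted p = 0.00041 and 0.00841. Of 4 other CC genes tested Ccl24 and Ccl26, which lie beside each other on chromosome 5 and encode eotaxins, were called and rose from 0% to 47.6% ± 22.1 and 41.3% ± 27.2 (SD, n = 5), with limma adjusted p = 0.00303 and 0.0296, and 0.0333 and 0.0609 when scaled. With equal list length Cx3cl1 and Cxcl12 no longer passed (limma adjusted p = 0.523 and 0.239). Cxcl10, Ccl24 and Ccl26 then kept peaks in too few libraries to be tested. Like Ccl9 and Ccl6, the genes Cx3cl1, Cxcl12, Cxcl10 and Ccl24 held H2AK119Ub in all libraries at 12 h, and Ccl26 held it in 1 of 3.

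The 24 receptor genes were read in the same way. H3K27me3 was called higher at 24 h for 4 of 5 tested, against 56.5% of all genes, namely Ackr1, Ccr8, Ccr4 and Ackr3. Scaled by autosomal coverage, Ackr1 and Ccr8 still passed, and Ccr4 and Ackr3 did not (limma adjusted p = 0.052 and 0.0796). Ccr8, the receptor of Ccl8 and Ccl1, rose from 0% to 73.1% ± 16.4 (SD, n = 4) with a limma adjusted p of 0.000493. Ackr3 rose from 35.8% to 61.3% ± 10.3 (SD, n = 4) with a limma adjusted p of 0.0436. When scaled by autosomal coverage its difference was -88.7 points, on values that are not held to the percent range. H2AK119Ub was called higher for 4 of 12 tested, near the 31.0% of all genes, namely Ccr9, Ccrl2, Ccr6 and Ackr2. Ccr9, the receptor of Ccl25, had none at 0 and 12 h and 35.2% ± 3.06 (SD, n = 5) at 24 h (limma adjusted p = 0.000135). Ccr9 and, for H3K27me3, Ccr4 entered the fits through their 24 h peaks alone. With equal list length Ackr3 did not pass in H3K27me3 (limma adjusted p = 0.192). The other receptor genes called for either mark then kept peaks in too few libraries to be tested.

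Ccrl2, which encodes a receptor that binds the attractant chemerin without signalling, was the receptor gene called for H3K27ac, 1 of 9 tested. It rose from 0% to 57.3% ± 8.20 (SD, n = 3) at 12 h and 66.8% ± 4.40 (SD, n = 3) at 24 h (limma adjusted p = 0.0267, and 0.0928 when scaled). In that it matched Ccl3, but Ccrl2 also rose in H2AK119Ub, to 87.5% ± 16.6 (SD, n = 3) at 12 h and 71.0% ± 40.7 (SD, n = 5) at 24 h. Of 24 genes of the TLR9 and NF-kB pathway, H3K27me3 was called for 2 of 3 tested, against 56.5% of all genes, and H2AK119Ub for 6 of 14, against 31.0%, all higher at 24 h. The 2 genes called for H3K27me3, Traf6 and Nfkb2, no longer passed when scaled by autosomal coverage (limma adjusted p = 0.363 and 0.105). The smallest p for H2AK119Ub was that of Rela, which encodes the p65 subunit of NF-kB and rose from 0% to 22.4% ± 3.66 (SD, n = 5) with a limma adjusted p of 0.0005. Rela entered the fit through its 24 h peaks alone. Nfkb2 rose from 0% to 70.1% ± 23.9 and Nfkbid from 0% to 60.3% ± 6.34 (SD, n = 5), with limma adjusted p = 0.00367 and 0.00753. Irak4, which encodes a kinase below TLR9, rose from 0% to 12.1% ± 2.65 (SD, n = 5) with a limma adjusted p of 0.0105, and 0.0877 when scaled. With equal list length Nfkb2 and Nfkbid no longer passed in H2AK119Ub (limma adjusted p = 0.0775 and 0.392). Rela and Irak4 then kept peaks in too few libraries to be tested. For H3K27ac 0 of 20 genes of that pathway were called by limma, and 7 had an unadjusted p under 0.05.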

How the data were processed

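The deposited files are 61 peak lists, 1 per library, called separately for each by SEACR, a caller of continuous signal blocks, per the file names. These name the Cast allele and 1 of 2 settings. Suz12 and Ring1B lists carry "non, 0.01, stringent", and lists of histone marks carry "norm relaxed". Per the labels the build is mm10. Bowtie2 2.3.4.1, deepTools 3.5.1, Picard and Trimmomatic 0.32 stand in the submitters' processing notes. Depth, allele rule and SEACR version are not given in the sources consulted. The total and highest signal of a peak, deposited by the authors, served to rank peaks inside their own list and nothing else. The 3 IgG samples were not analysed here. Lists of 1 group shared at most 0.829% identical peaks.

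Overlapping peaks were merged, and the covered percent of each gene region was computed with Python 3.11.15, pandas 2.3.3 and numpy 2.4.6. Genes were placed by RefSeq's annotation of GRCm38.p6. Percentages of genes with a peak in at least 3 libraries of an antibody were fitted in R 4.3.3 with limma 3.58.1 (moderated F-test over the 3 times, trend and robust, Benjamini-Hochberg adjusted p under 0.05 over all genes tested). A called gene is higher or lower at 24 h where that contrast also had an unadjusted p under 0.05. Genes with peaks at a single time enter the fit through that time alone. Their p-values and the shares of genes called depend on that filter. The fit was tested on simulated data. "Scaled" values are divided by the library's autosomal coverage relative to the antibody's mean. They are not held to the percent range, so a negative scaled difference need not mean a loss.

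The members and gene lists were chosen with earlier results of these data known. Named were all members, Ccl1, neighbouring genes, the 5 genes most like each group, and up to 4 called genes of each list by smallest p. The alternatives were scaling, equal list length, stricter lists, the gene body alone, no filter, a minimum of 10% coverage, the arcsine scale, a replicate block and leaving out each library. Another, which counts only the part of Ccl4 outside the Ccl3 region, was chosen after seeing the data.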

Additional observations from a re-analysis of the deposited data

Results flagged for a closer look

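Of 13 groups of 4 or 5 libraries whose values had a spread, 4 had a library set apart from the others by a gap larger than Dixon's 95% critical value. Chance sets apart about 1 in 20 groups of normally distributed values, a rate that does not hold where the other libraries are all at 0%. All 4 were H2AK119Ub at 24 h, and the values were among those that chose the genes, so they are given as descriptions. In replicate 1 Ccl5 was covered over 65.6% and Ccl3 over 65.4%, each against 0% in the other 4 libraries, and the mean of the Ccl3 to Ccl5 group was 71.8% against 0% to 11.7%, a mean that holds those same values of Ccl5 and Ccl3. In replicate 4 Ccl9 was covered over 24.1% against 81.2% to 86.5% in the others. Replicate 1 had the most covered autosomal sequence of the 5 libraries (212.8 Mb) and replicate 4 the least (59.1 Mb), and the part of that coverage in these values was not tested.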

How the results depend on the processing

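Covered percent depends on how many peaks a list holds, depth is unknown, and the cause of each move below was not tested. Of 114 alternatives to 20 results, leave-one-out aside, 82 stayed within the spread, or within 1.5 times a count, and 32 moved. Of those 82, 27 belong to 6 results that are 0, which most of these settings could not move. Leaving out the part of Ccl4 inside the Ccl3 region, chosen after seeing the data, moved none of 10 results by more than the spread. Those of H3K27me3 and H3K9me3 could not move, since Ccl4 was at 0% in both marks at 0 and 24 h. For H2AK119Ub the spread was wide, with an SD of 29.1 on a group mean of 20.4%. With equal list length the H3K27me3 excess of the Ccl2 to Ccl12 group at 24 h, 80.5 points over both 0 h and the other group, became 0, and scaled by autosomal coverage 48.6. The H3K27ac mean of the Ccl3 to Ccl5 group at 24 h, 42.7%, became 14.0% with equal length, and the group difference -14.0. The Ring1B difference, -17.1, was -25.3 over gene bodies alone. The counts of genes called were, for H3K27me3 (6771), 2363 scaled and 288 with equal length. For H2AK119Ub (4597) they were 690 with equal length and 2862 with stricter lists. For H3K9me3 (1219) they were 776 scaled, 39 with equal length and 683 with stricter lists. For H3K27ac (136) they were 0 scaled and 784 on the arcsine scale. For Suz12 (0) they were 1 scaled, 160 with stricter lists, 7 over gene bodies, 1 with the 10% minimum and 244 on the arcsine scale. For Ring1B (15) they were 72, 183, 51, 53 and 190 under those settings, 126 with equal length and 1 without a filter.

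No pair of libraries with the same replicate number correlated above 0.1 in deviations from the group means. Low correlation cannot show that the samples are unpaired, and the labels do not say whether the numbers pair them. With a replicate block 4156 genes were called for H3K27me3, 2193 in H2AK119Ub libraries, 1148 in those of H3K9me3 and 0 in those of H3K27ac, Suz12 or Ring1B.

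Leaving out 1 library at a time, the counts ran from 4163 to 7734 for H3K27me3, 2459 to 6682 for H2AK119Ub, 890 to 1227 for H3K9me3, 0 to 725 for H3K27ac, 0 to 0 for Suz12 and 0 to 2 for Ring1B. The H3K27me3 count moved by over 1.5 times without 0 h replicate 1 or 2, that of H2AK119Ub without 0 h replicate 1, 3 or 4, that of H3K27ac without any library but 12 h replicate 3, and that of Ring1B without any. The H3K27me3 excess of the Ccl2 to Ccl12 group at 24 h ran from 75.2 to 85.2. The group difference in H3K27ac ran from -50.1 to -35.0, in H2AK119Ub from -25.5 to -7.56, the latter without 24 h replicate 1, and in Ring1B from -20.2 to -13.8. In Suz12 it ran from -8.45 to 3.91 and turned positive without 24 h replicate 3. The Ccl3 to Ccl5 group alone ran from 35.0 to 50.1 in H3K27ac and from 7.56 to 25.5 in H2AK119Ub.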
